A study of Drosophila melanogaster with 4 samples.

Results

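The bantam hairpin of Drosophila melanogaster gives rise to a pair of small RNAs, the guide arm bantam-3p and the star arm bantam-5p. Their reads were collected from 4 small RNA libraries of fly heads by taking every listed sequence that overlapped 1 of the arms without mismatch over at least 15 nt. This gave 84 distinct sequences, 51 of bantam-3p and 33 of bantam-5p, out of 5550 in the series, and 3434350 of 47655343 reads. No sequence fitted both arms, and none fitted another arm of the series.

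The flies were wild-type males (genotype label 5905) raised at 25°C and aged to 3 or 30 days, and total RNA came from their heads. At each age 1 library was made from untreated RNA (control) and 1 from RNA that had been oxidized and β-eliminated (oxidized). The treatment takes RNAs with unmodified 3′ ends out of the ligation, and those methylated at the 2′ oxygen of the last ribose take a larger part of an oxidized library. There is 1 library per age and treatment: each comparison is between libraries, has no replicate check and carries no p-value. Intervals are exact Clopper-Pearson 95% intervals, except those of odds ratios and of differences between log2 ratios, which are 95% intervals from Poisson variances. All cover the counting error of reads only. With 1 library per group they hold no variation between libraries. Reads carry no molecular identifiers, so amplified copies count as separate reads. The ages follow the titles, with which the separate age field disagrees for 2 of the 4 libraries. The totals ran from 2091252 reads in the 3-day oxidized library to 17345816 in the 30-day control library, and levels are given in RPM, the reads of a sequence per 1000000 reads of its library. A count of 0 allows a level of up to 1.43 RPM in the former. miR-124-3p, a miRNA of the nervous system, was present in each library, at 1073 and 461 RPM at 3 days and 1070 and 224 RPM at 30 days (control and oxidized).

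bantam is a growth-promoting miRNA. It represses the pro-apoptotic gene hid, its transcription is raised by Yorkie, the effector of the Hippo pathway, and in the nervous system it acts in dendrite growth and in clock neurons. In flies a miRNA duplex is loaded into AGO1 or AGO2. Strands held by AGO2 are methylated at the 3′ end by Hen1, whereas those in AGO1 usually are not, and for a number of hairpins the guide goes mainly to AGO1 and the star strand to AGO2.

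In the Ensembl annotation (assembly BDGP6.54) the hairpin gene mir-ban lies on the plus strand of chromosome 3L at 642208 to 642288. Here bantam-5p occupies 642222 to 642244 and bantam-3p 642259 to 642281, with 14 bases between them. The hairpin is contained in the single exon of the noncoding transcript lncRNA:CR43334-RA (628435 to 643900). The deposited tables carry no coordinates and the submitters' notes name another build, so these positions are those of the annotation alone. Each arm is annotated as 23 nt long, the length of its most abundant read.

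The sequences below carry the results; they are reads of the deposited tables, written 5′ to 3′ with T for U, and capitals mark the seed (bases 2 to 8), the stretch that chooses targets. The 23-, 22- and 21-nt forms of bantam-3p and the 23- and 22-nt forms of bantam-5p hold most reads of their arm. The 18- and 17-nt forms of bantam-3p differ by 1 base at the 3′ end and went opposite ways with oxidation; the 17-nt form was chosen after its values were seen. The last sequence is bantam-5p beginning 1 base later, which shifts the seed.
bantam-3p, 23 nt: tGAGATCAttttgaaagctgatt
bantam-3p, 22 nt: tGAGATCAttttgaaagctgat
bantam-3p, 21 nt: tGAGATCAttttgaaagctga
bantam-3p, 18 nt: tGAGATCAttttgaaagc
bantam-3p, 17 nt: tGAGATCAttttgaaag
bantam-5p, 23 nt: cCGGTTTTcgatttggtttgact
bantam-5p, 22 nt: cCGGTTTTcgatttggtttgac
bantam-5p from position 2, 22 nt: cGGTTTTCgatttggtttgact

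The seeds of the arms differ, GAGATCA for bantam-3p and CGGTTTT for bantam-5p. Of the 522 other arms assembled from the tables, 0 had either seed, and 0 had the seed GGTTTTC of the shifted bantam-5p. bantam-3p begins with U in the RNA and bantam-5p with C. In the minimum-energy duplex of the 23-nt forms (-17.9 kcal per mol) 16 pairs were predicted, 5 of them G with U and 4 of them G with C. They run from position 2 to 19 of bantam-5p and from 3 to 20 of bantam-3p, interrupted by 1 internal loop of positions 12 and 13 of bantam-5p against positions 9 and 10 of bantam-3p.

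bantam-3p was one of the most abundant miRNA arms of untreated heads and lost most of its share with oxidation, while bantam-5p was a minor product that gained. The level of bantam-3p was 97669 RPM (1573709 reads) in the 3-day control, 20235 RPM (42317 reads) in the 3-day oxidized, 84651 RPM (1468335 reads) in the 30-day control and 10582 RPM (128095 reads) in the 30-day oxidized library. It was thus high in both control libraries, where it ranked 4 and 3 among all arms, and lower in both oxidized ones, where it ranked 11 and 16. The level of bantam-5p was 1312 RPM (21147 reads), 19079 RPM (39898 reads), 1479 RPM (25659 reads) and 11168 RPM (135190 reads) in the same order. It ranked 49 in both control libraries and 12 and 14 in the oxidized ones, so its low and high libraries were the reverse of those of bantam-3p.

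**Figure D1:**
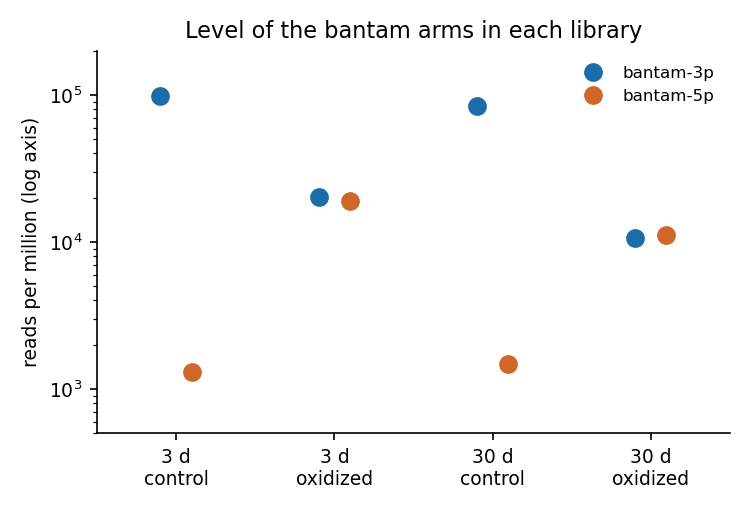
Level of each bantam arm in RPM (log axis) in the 4 libraries, 1 point per library. The arms lie far apart in both control libraries (97669 against 1312 RPM at 3 days) and nearly meet in both oxidized libraries (20235 against 19079 RPM at 3 days).

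With oxidation bantam-3p was 4.83-fold lower at 3 days (log2 ratio -2.27, 95% interval -2.28 to -2.26). At 30 days it was 8.0-fold lower (log2 ratio -3.0, -3.01 to -2.99). A 2-fold or larger lower level was common: it was found for 43.9% of the 98 arms above the level filter (a mean of at least 100 RPM and at least 50 reads in the libraries compared) at 3 days and for 52.6% of 95 arms at 30 days. bantam-3p had the sixth lowest ratio at 3 days and ranked 11 from the lowest at 30 days, and relative to the median arm its log2 ratios were -1.58 and -1.72. bantam-5p was 14.5-fold higher at 3 days (log2 ratio 3.86, 3.84 to 3.89) and 7.55-fold higher at 30 days (2.92, 2.90 to 2.94). A 2-fold or larger higher level was found for 35.7% and 29.5% of arms. With the filter of 100 RPM on the control library alone, through which an arm cannot enter by its oxidized level, 25.5% of 94 and 21.5% of 93 arms were higher and 53.2% and 60.2% lower. With the filter on the mean, bantam-5p ranked 13 from the highest at both ages, and relative to the median arm its log2 ratios were 4.55 and 4.20. Several arms ranked above it, such as miR-315-3p, miR-308-5p and miR-33-3p, were under 100 RPM in both control libraries and entered through their oxidized levels. The ranks and medians of both bantam arms are thus partly set by the filter. With the filter on the control library the median arm was itself at least 2-fold lower, and ranks were not computed. The directions held under each scaling tried, with log2 ratios between -2.65 and -1.73 at 3 days and -3.0 and -2.01 at 30 days for bantam-3p and between 3.48 and 4.40 and 2.92 and 3.91 for bantam-5p.

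The balance between the arms needs no scaling to the library. Of all bantam reads, bantam-5p held 1.33% (1.31 to 1.34) in the 3-day control, 48.5% (48.2 to 48.9) in the 3-day oxidized, 1.72% (1.70 to 1.74) in the 30-day control and 51.3% (51.2 to 51.5) in the 30-day oxidized library. Untreated heads thus held 74.4 reads of bantam-3p per read of bantam-5p at 3 days and 57.2 at 30 days, against 1.06 and 0.948 in the oxidized libraries, and the order of the arms was reversed in the 30-day oxidized library. The odds of bantam-5p to bantam-3p were 70.2-fold higher with oxidation at 3 days (log2 6.13, 6.10 to 6.16, from Poisson variances) and 60.4-fold higher at 30 days (log2 5.92, 5.90 to 5.94). The log2 odds ratio was lower at 30 than at 3 days by a log2 difference of -0.22 (-0.25 to -0.18).

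The same odds were computed for the other hairpins with both arms recognised and above the level filter, taking as minor the arm with fewer reads in the 3-day control. The odds of the minor arm were at least 2-fold higher with oxidation in 63.6% of 22 hairpins at 3 days and in 70% of 20 at 30 days, bantam included. The filter is on the mean of both libraries, so a minor arm can enter through the oxidized library where it is high: 6 of the 14 hairpins counted at 3 days and 5 of the 14 at 30 days had a minor arm under 100 RPM in the control, miR-315 among them. With both arms at 100 RPM or more in the control library, the count was 8 of 14 hairpins (57.1%) at 3 days and 9 of 14 (64.3%) at 30 days, and bantam ranked 1 and 2. With the filter on the mean, bantam had the second highest odds ratio of the 22 at 3 days, after miR-315 (277-fold), and ranked 3 of the 20 at 30 days, after miR-315 (230-fold) and miR-278 (75.3-fold). In share of reads, several minor arms gained more at 3 days than the 47.2 percentage points of bantam. These were the minor arms of miR-278 (75.6 points, from 8.0% to 83.6%), miR-275 (70.0), miR-315 (67.0), miR-308 (50.2) and miR-100 (49.2). Other hairpins went the other way, with minor-arm odds at least 2-fold lower in 6 of 22 at 3 days and in 5 of 20 at 30 days. Among them was miR-927, whose minor arm went from 30.8% to 0.580% at 3 days.

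**Figure D2:**
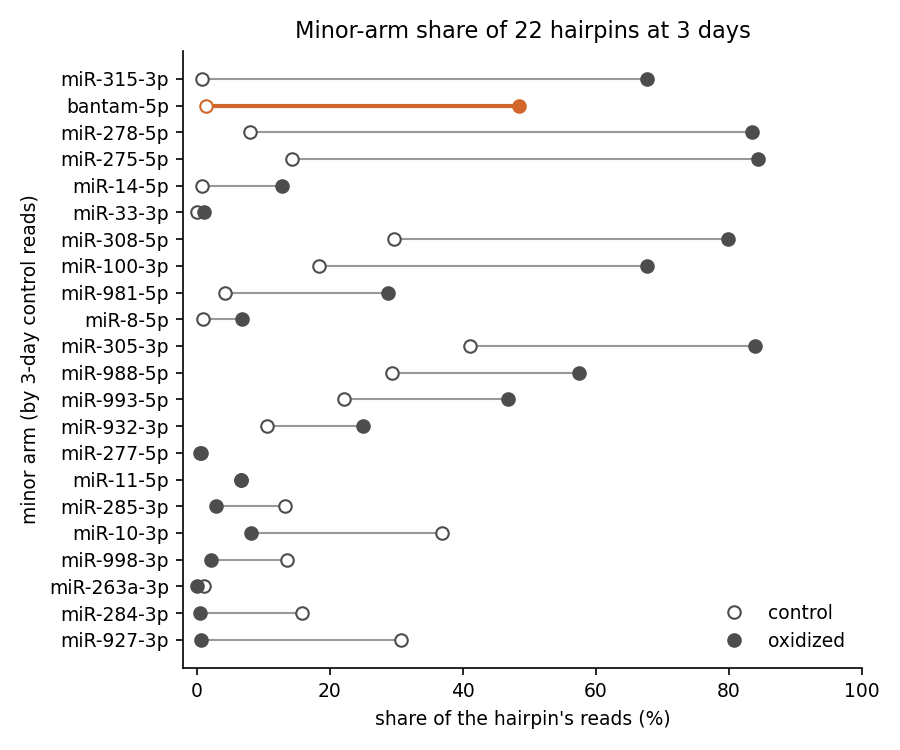
Share of a hairpin's reads held by its minor arm in the 3-day control (open circles) and 3-day oxidized library (filled circles), in percent, for 22 hairpins ordered by odds ratio. The bantam line (orange) runs from 1.33% to 48.5%, and in some hairpins, such as miR-927, the minor share is lower after oxidation.

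The 3′ end of bantam-3p was spread over a few bases, and its shorter forms took a larger part of the arm at 30 days and after oxidation. The 23-nt form made up 61.1% of bantam-3p reads in the 3-day control, 51.4% in the 3-day oxidized, 50.9% in the 30-day control and 26.4% in the 30-day oxidized library. The 22-nt form made up 29.9%, 34.8%, 33.3% and 43.7%, and the 21-nt form 6.93%, 9.39%, 12.0% and 22.1%. The 23-nt form was therefore the leading one in the first 3 of these libraries, and in the 30-day oxidized library the 22-nt form took its place. The mean read length was 22.5 nt (SD over reads 0.75), 22.3 nt (SD 1.10), 22.4 nt (SD 0.87) and 21.8 nt (SD 1.25) in the same order.

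The mean length of bantam-3p differed by -0.239 nt at 3 days and -0.577 nt at 30 days (oxidized minus control). A shortening of at least 0.25 nt was seen in 27.6% of 98 arms at 3 days and in 40% of 95 arms at 30 days, so bantam-3p was just short of that size at 3 days and past it at 30 days, ranking 29 and 16 from the most shortened arm. From 3 to 30 days the difference was -0.154 nt in the control libraries, where bantam-3p was itself the median of 95 arms and 35.8% were shorter by at least 0.25 nt. In the oxidized libraries it was -0.492 nt, ranking 20 of 96 arms, of which 34.4% were past that size.

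**Figure D3:**
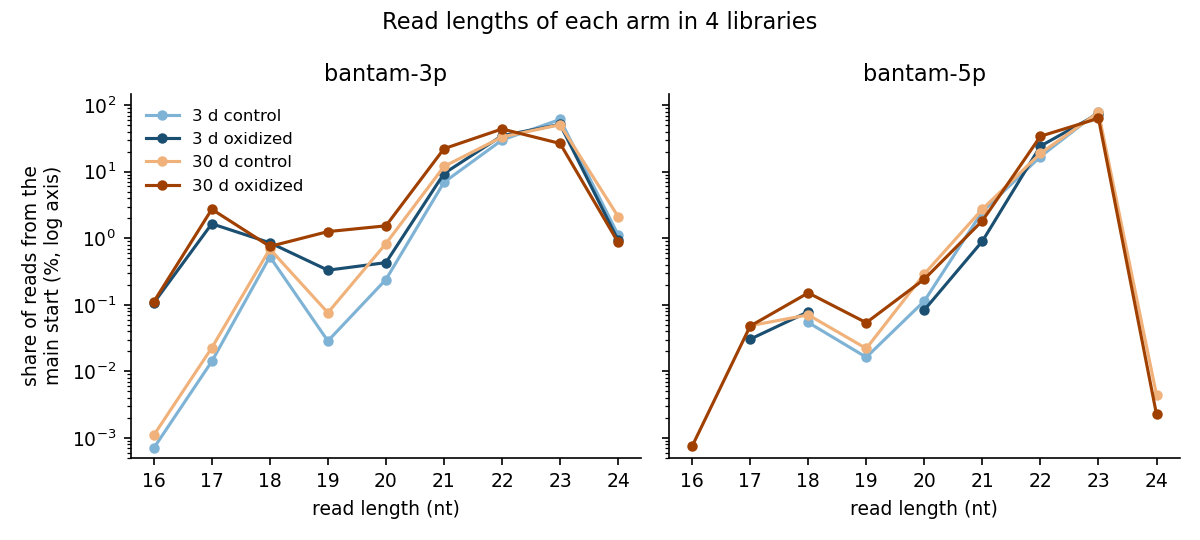
Share of reads by length, in percent on a log axis, for reads of each arm that begin at its main 5′ start, with 1 line per library. bantam-3p reads of 17 nt are near 0.01% to 0.02% in the control libraries and at 1.65% and 2.73% in the oxidized ones, while bantam-5p stays concentrated at 22 and 23 nt in each library.

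The ratio of oxidized to control level differed between the lengths of bantam-3p that share the main 5′ start. Whether reads of the oxidized libraries had kept their full length through the treatment was not tested. The levels of the 23-nt form were 59676 and 10405 RPM at 3 days and 43060 and 2796 RPM at 30 days, control and oxidized. This is a log2 ratio of -2.52 (-2.54 to -2.50) at 3 days and -3.94 (-3.96 to -3.93) at 30 days. The 22-nt form had log2 ratios of -2.05 and -2.61, the 21-nt form -1.83 and -2.12, and the 20-nt form -1.43 and -2.12. From 23 to 21 nt a form was thus less depleted the shorter it was, at both ages. The 24-nt form was as strongly depleted at 3 days as the 23-nt form, with log2 ratios of -2.53 and -4.30. Its extra T cannot be told apart from an added tail, since no genome sequence was used here.

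Reads of 17 nt went the other way from reads of 18 nt. The 18-nt form had 8301 reads in the 3-day control, 362 in the 3-day oxidized, 10114 in the 30-day control and 959 in the 30-day oxidized library, or 515, 173, 583 and 79.2 RPM. The 17-nt form had 221, 698, 330 and 3474 reads, or 13.7, 334, 19.02 and 287 RPM. The 18-nt form was the more frequent of these in both control libraries (37.6 and 30.6 reads per 17-nt read), and the 17-nt form in both oxidized ones (1.93 and 3.62 reads per 18-nt read). With oxidation the 18-nt form was 2.98-fold lower at 3 days, with a log2 ratio of -2.88 at 30 days. The 17-nt form was 24.3-fold higher at 3 days (log2 ratio 4.605, 4.38 to 4.83) and 15.1-fold higher at 30 days (3.91, 3.75 to 4.08), above the ratios of bantam-5p as a whole (3.86 and 2.92). Reads of 16 nt were also higher, from 11 to 45 reads at 3 days and from 16 to 141 at 30 days, as were reads of 19 nt, 2.40-fold and 2.06-fold. The 17-nt sequence fits no other arm of the tables; whether it occurs elsewhere in the genome was not tested.

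**Figure D4:**
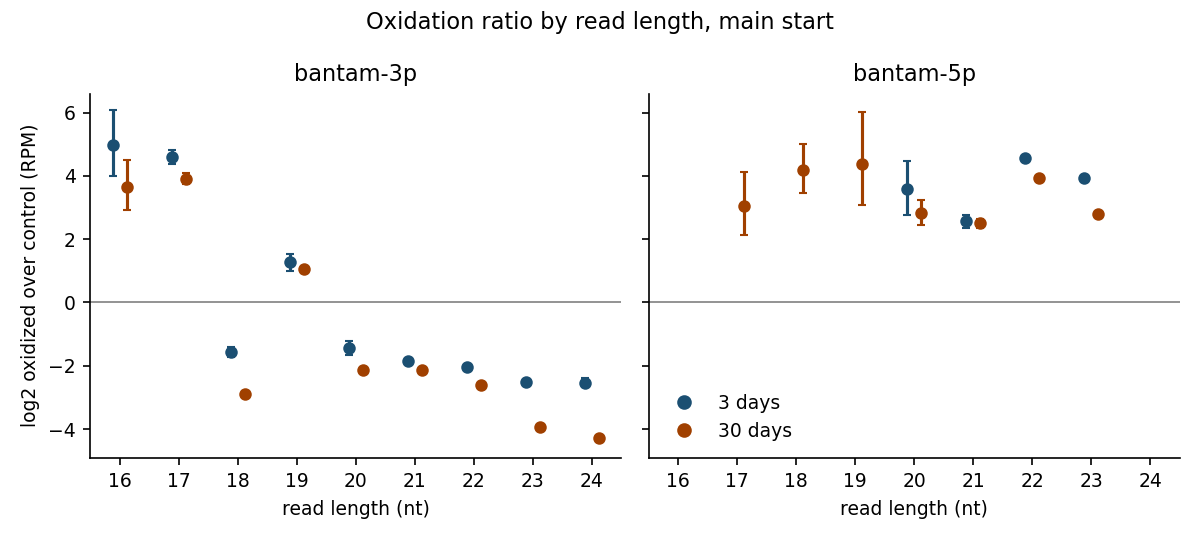
log2 ratio of oxidized to control RPM for each read length of each arm (reads from the main 5′ start, lengths with at least 50 reads in the pair of libraries), at 3 and 30 days, with exact 95% counting intervals. For bantam-3p the 18-nt reads and those of 20 to 24 nt lie below 0 and the 16-, 17- and 19-nt reads above it; each bantam-5p length plotted lies above 0.

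The mean read length of bantam-5p differed little with oxidation, although its forms did not keep their shares. The mean was 22.6 nt in the 3-day control, 22.7 nt in the 3-day oxidized, 22.6 nt in the 30-day control and 22.6 nt in the 30-day oxidized library, and with oxidation it moved by 0.052 nt at 3 days and -0.040 nt at 30 days. From 3 to 30 days it differed by -0.041 nt in the control and -0.132 nt in the oxidized libraries, the latter ranking 49 of 96 arms. The mean over all reads also holds the position 2 reads described below, mostly of 22 nt, which had smaller shares after oxidation. Within the main start the 23-nt form made up 80.4%, 74.6%, 77.9% and 63.5% of reads and the 22-nt form 16.9%, 24.3%, 18.9% and 34.1%. The 22-nt form thus had its highest shares in the oxidized libraries, and most of all at 30 days. It was 23.7-fold higher with oxidation at 3 days (194 and 4583 RPM) and 15.3-fold higher at 30 days (247 and 3776 RPM). The 23-nt form was 15.3-fold higher (921 and 14103 RPM) and 6.89-fold higher (1020 and 7024 RPM), and the 21-nt form 5.90-fold and 5.64-fold. Unlike in bantam-3p, the shortest of these forms had the lowest ratio.

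The 5′ end of bantam-3p was nearly fixed. Position 1 is the first base of the most abundant read of the arm. Reads beginning there made up 99.9% of the arm in each of the 3-day libraries and in the 30-day control. In the 30-day oxidized library they made up 99.4%. The remainder in that last library included 416 reads (0.325%) from position 2 and 184 reads (0.144%) from position 5. The corresponding counts in the 30-day control were 214 and 156, and in the 3-day oxidized library 4 and 2. Among the 416 reads, 178 ended at position 22, 134 at position 21 and 3 at position 23, although position 23 was the end of 33848 reads from position 1.

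bantam-5p had a further start whose share of the arm was much smaller after oxidation. Reads from position 2 made up 12.0% (11.6 to 12.5) of the arm in the 3-day control, 0.414% (0.353 to 0.482) in the 3-day oxidized, 10.3% (9.90 to 10.6) in the 30-day control and 0.328% (0.298 to 0.360) in the 30-day oxidized library. In level the position 2 reads were at 158 and 78.9 RPM at 3 days and at 152 and 36.6 RPM at 30 days (control and oxidized). Their log2 ratios were -1.0 and -2.05, and were smaller in size than those of bantam-3p. The median arm was at -0.69 and -1.28 with the filter on the mean. With the filter on the control library alone it was at least 2-fold lower at both ages. The reads from position 1 were 16.5-fold and 8.45-fold higher, so the level of the main start differed by more than that of position 2. The share of the main start was 87.3%, 99.03%, 88.5% and 99.02%, a gain of 11.8 percentage points with oxidation at 3 days and 10.5 at 30 days. A gain of at least 5 points was seen in 8.16% of 98 arms at 3 days and in 7.37% of 95 at 30 days. bantam-5p had the third largest gain at 3 days and ranked 4 at 30 days.

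**Figure D5:**
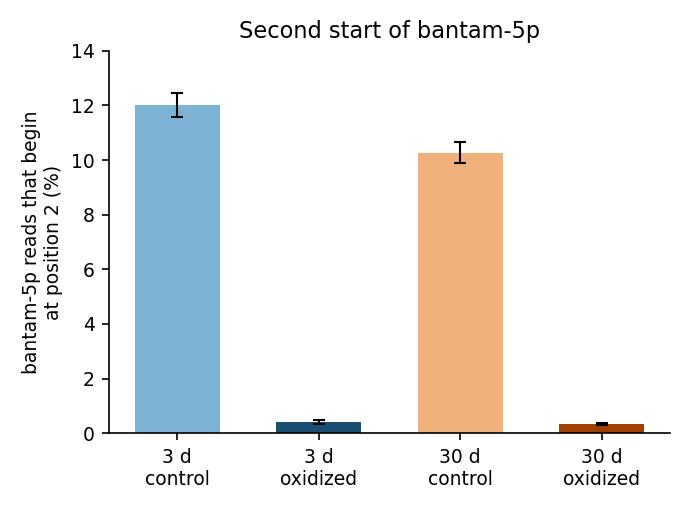
Share of bantam-5p reads that begin at position 2, in percent, in each library, with exact 95% counting intervals. The control libraries stand at 12.0% and 10.3% and the oxidized libraries at 0.414% and 0.328%.

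These starts could be compared at the same 3′ end. Among reads ending at position 23, the 23-nt form from position 1 had 14833, 29492, 17696 and 85035 reads (3-day control, 3-day oxidized, 30-day control, 30-day oxidized). The 22-nt form from position 2 had 2467, 135, 2531 and 305 reads. The form from position 1 was the leading one in each library, at 70.1%, 73.9%, 69.0% and 62.9% of the arm, and the form from position 2 had a far smaller share in the oxidized libraries, with the same last base in both. The odds of the position 2 form to the position 1 form were 36.3-fold lower with oxidation at 3 days (log2 -5.18, -5.43 to -4.93, from Poisson variances). At 30 days they were 39.9-fold lower (log2 -5.32, -5.49 to -5.14). In RPM the position 2 form was at 153 and 64.6 at 3 days and at 146 and 25.2 at 30 days, so it was depleted, with log2 ratios of -1.25 and -2.53. At the other main 3′ end, position 22, the odds were lower by 7.68-fold (3 days) and 7.53-fold (30 days), from 70 and 96 control reads of the position 2 form. For that end the log2 odds ratios between 3 and 30 days were -0.0032 in the control libraries (-0.45 to 0.45) and 0.026 in the oxidized ones (-0.56 to 0.61).

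Short reads of bantam-5p that begin inside the arm had higher levels after oxidation, as the whole arm did. The 16-nt form tCGATTTGgtttgact from position 8 (capitals mark its bases 2 to 8) had 20, 70, 60 and 316 reads, or 1.24, 33.5, 3.46 and 26.1 RPM, in the same order of libraries. It shares its last base with the 23-nt form. The 17-nt form tTCGATTTggtttgact from position 7 had 30, 75, 55 and 203 reads. At 30 days their shares of the arm were not higher after oxidation: 0.234% in both libraries for the 16-nt form, and 0.214% and 0.150% for the 17-nt form. At 3 days they were 0.0946% and 0.175% for the 16-nt form, and 0.142% and 0.188% for the 17-nt form.

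Age was accompanied by small differences in the untreated libraries. bantam-3p was 1.15-fold lower at 30 than at 3 days (log2 ratio -0.21, -0.21 to -0.20), and bantam-5p 1.13-fold higher (0.17, 0.15 to 0.20). In this comparison 4.21% of 95 arms were lower by 2-fold or more and 5.26% higher by as much, and neither bantam arm was among them. In heads as a whole, fewer cells of a type and less RNA per cell cannot be told apart. The odds of bantam-5p to bantam-3p were 1.30-fold higher at 30 days (log2 0.38, 0.35 to 0.41). The lengths of bantam-3p differed among themselves: the 23-nt form had a log2 ratio of -0.47, the 22-nt form -0.054, the 21-nt form 0.58, the 20-nt form 1.59, the 18-nt form 0.18 and the 24-nt form 0.71.

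In the oxidized libraries bantam-3p was 1.91-fold lower at 30 than at 3 days (log2 ratio -0.94) and bantam-5p 1.71-fold lower (-0.77). The median arm was at -0.65 there; 27.1% of 96 arms were lower by 2-fold or more and 0% higher by as much. miR-263a-5p held 31.6% of all oxidized reads at 3 days against 50.5% at 30 days. With that arm left out of the totals the log2 ratios were -0.47 for bantam-3p and -0.31 for bantam-5p. With trimmed-mean (TMM) scaling the bantam values were -0.064 and 0.098, so that of bantam-5p turned. Relative to the median arm, bantam-3p was at -0.28 and bantam-5p at -0.12. The differences between lengths do not depend on the scaling. The log2 age ratio in the oxidized libraries was -1.90 for the 23-nt, -0.61 for the 22-nt and 0.30 for the 21-nt form of bantam-3p. For bantam-5p it was -1.01 for the 23-nt, -0.28 for the 22-nt and 0.25 for the 21-nt form. In both arms the longest of these forms was thus furthest below the shortest at 30 days.

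The age change of the oxidation ratio, 30 minus 3 days on the log2 scale, was -0.73 (-0.75 to -0.71) for bantam-3p and -0.95 (-0.98 to -0.91) for bantam-5p, against -0.78 for the median of 98 arms. These values rest on the scaling: with TMM they were 0.21 for bantam-3p, which turned, and -0.011 for bantam-5p, and with median-of-ratios scaling -0.027 and -0.24. Both arms were thus near the middle, ranking 55 and 34 from the lowest. Within bantam-3p the same change was -1.43 for the 23-nt form, -0.56 for the 22-nt form and -0.29 for the 21-nt form. Within bantam-5p it was -1.15, -0.63 and -0.07.

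The arms with the most similar pattern over the 4 libraries were found by the Euclidean distance between log2 RPM values, each centred on its own mean, among 96 other arms with a mean of at least 100 RPM. The nearest to bantam-3p were miR-9b-5p (distance 0.26), miR-987-5p (0.28), miR-9a-5p (0.31) and miR-276a-3p (0.32). The nearest to bantam-5p was miR-988-5p (distance 0.12), at 28.0 and 448 RPM at 3 days and 31.7 and 256 RPM at 30 days. miR-988-5p was under 100 RPM in both control libraries and passed the filter through its oxidized levels, so its likeness in oxidation gain is partly set by the filter. It was followed by an unnamed arm of 23 nt (0.34), miR-995-3p (0.40) and an unnamed arm of 22 nt (0.52), each above 100 RPM in both control libraries. The distance between the 2 bantam arms was 6.03.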

How the data were processed

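The authors deposited raw counts for each library as a list of read sequences, each with its number of reads and no column names. Per the labels' protocols, the TruSeq small RNA kit of Illumina was used; the submitters' processing notes name CASAVA 1.8.2, Bowtie and the build dm3 without a role, and for adapter trimming the sources used here give nothing. Sequences listed more than once, always with an equal count, were counted once. No read of the main length with 1 changed base was listed for either arm; whether mismatched reads were removed before deposit is unknown.

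Sequences of up to 30 nt were grouped into 524 arms by mismatch-free overlap of at least 15 nt with the most abundant read; 253 that fitted several arms were left out of the others' counts (at most 0.00935% of a library). No catalogue sequence was used: arms were recognised by their first 7 or more bases from general knowledge, which named 78 arms, and for bantam the annotated lengths were checked. Levels are RPM of all reads in a table. The members, lists and thresholds were chosen with earlier results of these data known.

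Sequences named are the 6 most abundant of each arm and the leading sequence of any other start above 0.1% of it; hairpins are placed by rank. Intervals came from scipy 1.17.1, scalings from edgeR 4.0.16 and DESeq2 1.42.0, and the duplex from ViennaRNA 2.7.2. The ratio and grouping steps were tested on simulated data. Alternatives were 3 scalings, an overlap of 20 nt, reads of 20 to 24 nt, summed repeated lines, 3 level filters and, added after the data were seen, a filter on hairpins by their control library.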

Additional observations from a re-analysis of the deposited data

Results flagged for a closer look

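Effects of opposite sign in the 2 ages or in the 2 treatments were found for 10 bantam features whose counting intervals both leave out 0; the differences were not tested, since there is 1 library per group. The intervals are those of levels in RPM. In 6 of these features the signs of the ratios, without regard to intervals, were opposite under each scaling. For bantam-3p reads that begin at position 2, the log2 ratio of oxidized to control was -2.43 at 3 days (166 and 4 reads) and 1.48 at 30 days (214 and 416 reads). For those that begin at position 5 it was -2.55 at 3 days, resting on 2 oxidized reads, and 0.76 at 30 days. In the log2 ratio of 30 over 3 days, control and oxidized libraries were at 0.18 and -1.13 for the 18-nt form of bantam-3p. They were at 0.71 and -1.05 for its 24-nt form and at 0.15 and -1.01 for the 23-nt form of bantam-5p. For bantam-5p reads from position 7 they were at 0.73 and -0.98. With TMM and median-of-ratios scaling the oxidized value of the latter was -0.11 and -0.33.

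In the other 4 features the opposite signs did not hold under each scaling. The log2 age ratios in the control and oxidized libraries were 0.47 and -0.22 for the 17-nt form of bantam-3p, 0.17 and -0.77 for all bantam-5p reads, 0.19 and -0.77 for bantam-5p reads from position 1, and 0.35 and -0.28 for the 22-nt form of bantam-5p.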

How the results depend on the processing

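The oxidation ratios and the odds of the arms kept their direction under each alternative tried; the age ratio of bantam-5p in the oxidized libraries and the age change of the oxidation ratio of bantam-3p turned with TMM scaling. Most values moved by more than their counting intervals, which are narrow at this depth. No paired analysis was possible because there is 1 library per group. With no replicates, none was left out.

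With TMM, median-of-ratios and totals without miR-263a-5p, the log2 oxidation ratio of bantam-3p was -2.65, -2.31 and -1.73 at 3 days and -2.45, -2.34 and -2.01 at 30 days. That of bantam-5p was 3.48, 3.82 and 4.40 at 3 days and 3.47, 3.57 and 3.91 at 30 days. The log2 age ratio of bantam-3p was -0.27, -0.26 and -0.20 in the control and -0.064, -0.29 and -0.47 in the oxidized libraries. That of bantam-5p was 0.11 and 0.12 (TMM, median-of-ratios) in the control and 0.098, -0.12 and -0.31 in the oxidized libraries.

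An overlap of 20 nt and reads of 20 to 24 nt gave the same values to the digits printed. The log2 ratios of bantam-3p were -2.31 and -3.06 with oxidation at 3 and 30 days and -0.21 and -0.97 with age in the control and oxidized libraries. The 5p share was 49.1% and 52.5% in the 3- and 30-day oxidized libraries. The log2 odds of bantam-5p to bantam-3p were 6.17 and 5.98 with oxidation, and 0.19 with age in the oxidized libraries. In the order 3-day control, 3-day oxidized, 30-day control, 30-day oxidized, mean lengths were 22.56, 22.44, 22.42 and 22.03 nt for bantam-3p and 22.68, 22.73, 22.66 and 22.61 nt for bantam-5p. Main-start shares were 99.97%, 99.99%, 99.965% and 99.7% for bantam-3p and 87.7%, 99.54%, 89.3% and 99.62% for bantam-5p.

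The counts over all arms moved with the level filter. With 10 RPM, 72 of 166 arms were at least 2-fold lower and 62 higher with oxidation at 3 days, 78 of 153 lower and 45 higher at 30 days, and 47 of 152 lower and 1 higher with age in the oxidized libraries. With no filter these were 93 and 112 of 259, 138 and 94 of 311 and 102 and 13 of 264, and with age in the control libraries 38 and 43 of 364. With age in the oxidized libraries the lower and higher counts were 6 and 11 with TMM, 11 and 6 with median-of-ratios and 14 and 3 without miR-263a-5p, against 26 and 0. With 100 RPM on the control or 3-day library, each of these counts stayed within 1.5 times. A filter on hairpins added after the data were seen, both arms at 100 RPM or more in the control library, left 8 of 14 hairpins with minor-arm odds at least 2-fold higher at 3 days and 9 of 14 at 30 days, against 14 of 22 and 14 of 20.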
